A study of Mus musculus with 16 samples.

Results

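Epididymal fat of mice given metformin on a high-fat diet (HFD) was compared with epididymal fat of mice on the diet alone, over 8 of the 16 libraries of the series, 4 in each group. The members were chosen by group: the 4 count columns whose codes start with MH (HFD + metformin) and the 4 whose codes start with H (HFD). All mice of the series were C57BL/6J males, 6 weeks old and about 22 g at purchase. Both groups received a diet with 60% fat for 8 weeks, and the treated mice then received metformin for 6 weeks. The labels state neither the dose and route of metformin nor the diet during those 6 weeks. A normal-diet group of 4 libraries is given beside the values where it helps to place a level. The resveratrol group enters the shared model, and its values are given in a few places without a test. Total RNA was sequenced, and reads were counted for coding genes and for long non-coding RNAs (lncRNAs). Titles and design text name epididymal fat, although other protocol texts mention retina (RNA extraction) and skeletal muscle (treatment). Summed markers of retina stood at 2.34 to 10.3 CPM (mRNA counts scaled to a common library size) and those of skeletal muscle at 34.3 to 130.1 CPM in the 8 libraries, against 24530 to 43810 CPM for markers of adipocyte identity.

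Metformin is a biguanide used against type 2 diabetes, known to inhibit complex I of the respiratory chain and to activate the energy sensor AMPK, chiefly in liver and gut. Visceral fat of obese mice fills with macrophages, many of which surround dying fat cells, take up lipid and carry a lysosomal and lipid-handling programme marked by Trem2, Gpnmb and the integrin CD11c. Such cells are called lipid-associated macrophages. The epididymal fat pad lies along the epididymis and the efferent ducts, so that a dissection can carry ciliated duct epithelium with it.

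The libraries held 15061324 to 20531032 mRNA counts each. Of the 8 columns, 6 matched a sample title, and the remaining 2 carried a code found in no title. Their group came from the letters of the code, and they appear here as HFD unmatched and metformin unmatched. The codes of HFD 1 to 3 share the number before the hyphen and that of HFD unmatched differs, and the labels do not say what this number stands for. No pair of libraries within a group was a duplicate: chi-square over degrees of freedom, which sampling alone would hold near 1, ranged from 12.6 to 123.4. The labels do not say whether each library came from a separate animal, so p-values here measure the spread between these libraries, which may be technical. HFD unmatched stood apart from the other HFD libraries. Its summed general macrophage markers were 2496 CPM, against 4984 to 5457 CPM in HFD 1 to 3 and 1758 to 2348 CPM with metformin.

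Markers of duct epithelium differed between the metformin libraries. Foxj1, the transcription factor of motile ciliated cells, stood at 0.303, 0.306, 0.469 and 0.184 CPM in HFD 1, 2, 3 and unmatched, and 0.277, 96.8, 47.9 and 76.9 CPM in metformin 1, 2, 4 and unmatched. Metformin 1 was therefore at the level of the diet-alone libraries, and metformin 2, 4 and unmatched were far above them. The summed level of 26 markers of motile ciliated epithelium was 23.5 to 25.3 CPM in HFD, 24.7 CPM in metformin 1, and 1840, 614.8 and 914.4 CPM in metformin 2, 4 and unmatched. Metformin 2 also held 2766 CPM of spermatogenic markers, against at most 29.2 CPM in the other 7 libraries. Metformin 1 was not free of epididymal reads: markers of epididymis principal cells summed to 39.8 CPM there, to 93.6 to 163.4 CPM in the other metformin libraries, and to at most 0.595 CPM in HFD. Crisp1, a secreted sperm-coating protein of the epididymis, had 0 counts in each HFD library and 16.1 CPM in metformin 1, and the mean over the metformin libraries was at least 83.7-fold higher than the floor of 3 counts per HFD library. Relative to each library's mRNA count, Crisp1 was nearly level, at 15.4, 16.3, 16.1 and 15.2 CPM in metformin 1, 2, 4 and unmatched. Resveratrol 4 held 12130 CPM of it by that measure. Whether the Crisp1 reads of the metformin libraries came from duct tissue in them was not tested. Because of the ciliated markers, changes below were looked up in metformin 1. They count as seen there when that library lies beyond all 4 HFD libraries in the direction of the call. Every called gene and lncRNA named below was seen there, whether or not its level in metformin 1 is printed.

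**Figure D1:**
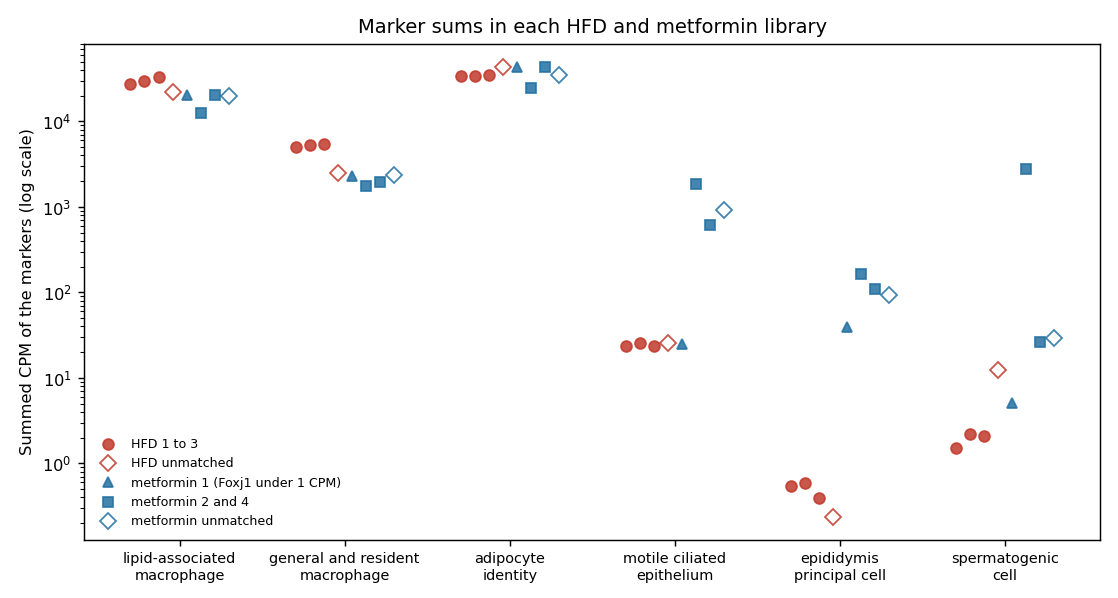
Summed level of 6 marker lists (vertical axis, CPM on a log scale) in the 4 HFD libraries (red) and the 4 metformin libraries (blue), 1 symbol per library. Ciliated markers stand at 24.7 CPM in metformin 1 and at 614.8 to 1840 CPM in the other metformin libraries, and general macrophage markers at 1758 to 2348 CPM with metformin against 4984 to 5457 CPM in HFD 1 to 3 and 2496 CPM in HFD unmatched.

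Of 17337 genes tested with edgeR's quasi-likelihood model over all 16 libraries, 32 (0.185%) were higher and 147 (0.848%) lower with metformin at a Benjamini-Hochberg adjusted p under 0.05. The adjusted p-values of these 179 genes all lay between 0.0471 and 0.0499. By the sign of the log2 fold change alone, 9365 of the 17337 genes were higher and 7972 lower. A model of the 8 libraries alone called 546 genes higher (3.38%) and 596 lower (3.69%) of 16136 tested. All 32 higher genes and 135 of the 147 lower genes were called in that model too. The levels of the metformin and the HFD libraries did not overlap for 32 of the 32 higher genes and 126 of the 147 lower ones, where the same held for 8.29% of all genes in the upward and 9.14% in the downward direction. Metformin 1 lay above all HFD libraries for 32 of the 32 higher genes and below all of them for 144 of the 147 lower genes. Over all genes tested, metformin 1 lay above every HFD library for 28% and below every one for 28.3%. Metformin 1 is 1 of the 4 libraries of the call, so these counts describe the calls and are no separate test. The calls were sensitive to single libraries: without any 1 of HFD 1, 2 or 3 or of the metformin libraries, 0 or 1 gene was called in each direction, and without HFD unmatched 182 were higher and 531 lower. Resveratrol 4, which is not compared here and holds little fat signal (2187 CPM of adipocyte markers), also mattered: without it 1068 genes were higher and 1374 lower.

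**Figure D2:**
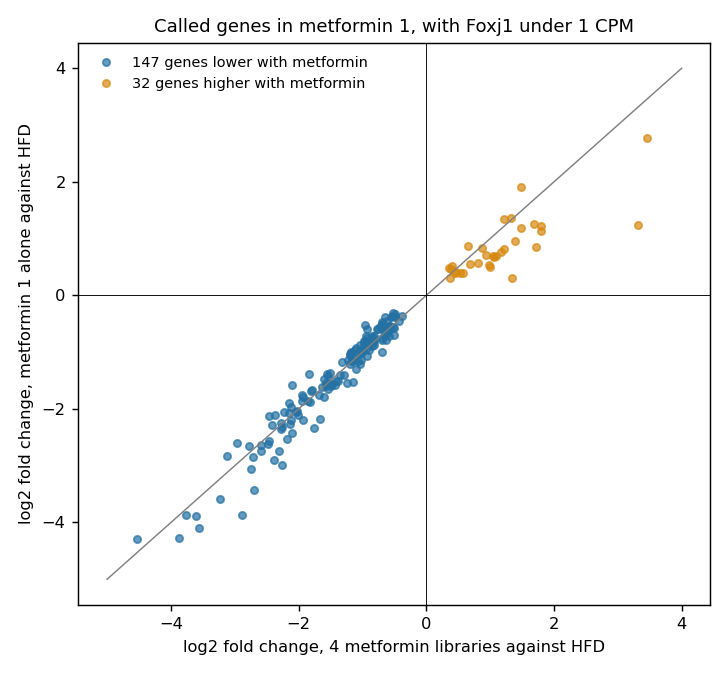
Log2 fold change of the 179 called genes for all 4 metformin libraries against HFD (horizontal axis) and for metformin 1 alone against HFD (vertical axis), with the line of equality in grey. All 147 lower and all 32 higher genes keep their sign in metformin 1, and Bbof1 (3.31 and 1.24) and Celsr2 (1.35 and 0.31) lie farthest below the line.

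Several genes of lipid-associated macrophages fell with metformin. Of 25 genes of that programme, 7 were called lower and none higher. A lower level was found for 24 of them, and for 7972 of all 17337 genes tested. The median log2 fold change was -1.75, against 0.04 for all genes tested. In the model of the 8 libraries 14 were called lower, without HFD unmatched 15, and without both unmatched libraries 15. With a score of ciliated markers as a covariate and resveratrol 4 left out none was called, and the median log2 fold change was -1.68. In bulk tissue, fewer cells of a type and less RNA per cell cannot be told apart. Gpnmb, a glycoprotein of lipid-laden macrophages, was at 1016, 1303, 1260 and 126 CPM in HFD 1, 2, 3 and unmatched, and 48.2, 45.8, 40.2 and 118 CPM in metformin 1, 2, 4 and unmatched. HFD 1 to 3 stood far above the metformin libraries, HFD unmatched lay just above the highest metformin library, and the groups did not overlap. The change was 14.7-fold (log2 fold change -3.88, SE 0.76, adjusted p = 0.0471), and the normal-diet mean was 68.2 CPM.

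Trem2, a lipid-sensing receptor of these cells, was at 124, 148, 164 and 16.1 CPM in HFD 1, 2, 3 and unmatched, and 7.68, 8.08, 6.87 and 14.5 CPM in metformin 1, 2, 4 and unmatched. Again HFD 1 to 3 were high and HFD unmatched stood next to metformin unmatched, without overlap (log2 fold change -3.60, SE 0.79, adjusted p = 0.0494). Itgax, which encodes CD11c, was at 204, 259, 272 and 37.1 CPM in HFD 1, 2, 3 and unmatched, and 16.3, 12.9, 13.6 and 39.3 CPM in metformin 1, 2, 4 and unmatched. Here the groups overlapped, since metformin unmatched was above HFD unmatched (log2 fold change -3.23, SE 0.71, adjusted p = 0.0494). The normal-diet means were 12 CPM for Trem2 and 14.1 CPM for Itgax, beside 7.68 and 16.3 CPM in metformin 1.

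These 3 genes were among the largest decreases, and their promoters are shown because each holds the core TGANTCA that AP-1 factors bind, in capitals, searched on both strands with N for any base. The sequences are RefSeq's on GRCm38.p6, from 250 bases before to 50 after the start site, at chr6:49036268-49036567, plus strand for Gpnmb, chr17:48346151-48346450, plus strand for Trem2 and chr7:128129300-128129599, plus strand for Itgax, each written 5′ to 3′ along the gene.
Gpnmb: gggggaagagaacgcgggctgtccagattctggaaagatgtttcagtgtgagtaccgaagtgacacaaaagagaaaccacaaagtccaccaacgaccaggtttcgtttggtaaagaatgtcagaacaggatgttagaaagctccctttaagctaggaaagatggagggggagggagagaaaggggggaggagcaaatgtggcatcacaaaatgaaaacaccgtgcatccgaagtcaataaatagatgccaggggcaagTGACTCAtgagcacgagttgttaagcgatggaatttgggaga
Trem2: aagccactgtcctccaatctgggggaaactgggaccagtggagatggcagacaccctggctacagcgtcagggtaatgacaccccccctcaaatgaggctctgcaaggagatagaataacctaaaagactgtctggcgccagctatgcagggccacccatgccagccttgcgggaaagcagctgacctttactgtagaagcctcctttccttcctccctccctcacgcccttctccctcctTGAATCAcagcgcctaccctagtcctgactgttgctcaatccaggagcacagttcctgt
Itgax: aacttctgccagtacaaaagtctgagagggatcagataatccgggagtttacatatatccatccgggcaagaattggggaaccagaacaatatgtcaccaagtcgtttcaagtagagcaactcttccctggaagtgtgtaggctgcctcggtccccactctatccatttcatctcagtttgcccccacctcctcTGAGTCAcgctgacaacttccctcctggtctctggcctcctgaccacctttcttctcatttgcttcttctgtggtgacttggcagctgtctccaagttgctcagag
The match starts 9 bases after the start site in Gpnmb, counting the start as 1, and 9 and 56 bases before it in Trem2 and Itgax. Of the 147 lower genes, 115 had a promoter in the table, and 12 of these (10.4%) held the core. Of the 25 listed macrophage genes 18 had a promoter, and 5 (27.8%) held it. The core was in 6.69% of the 11886 tested genes with a promoter, in 8.97% of all 27025 genes there, and in 7.81% of the 32851 promoters they have. It was 1 of several motifs searched. GAGGAA was in 40.9% of the same lower genes and 50% of the same macrophage genes, against 30.8% of tested genes. For CCAAT these shares were 40.9%, 44.4% and 42.2%. A match is a description of the letters and says nothing of binding. Atf3, a stress-induced member of the ATF/CREB family that dimerises with Jun proteins, was itself among the largest decreases and stood at 99.1, 104, 129 and 18.4 CPM in the HFD libraries and 12.5, 6.77, 6.21 and 14.7 CPM in the metformin libraries, in the same order (log2 fold change -3.13, SE 0.59, adjusted p = 0.0471).

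The other called members of the programme were Lgals3, Lipa, Ctss, Capg and, as above, Itgax. Lgals3, the secreted lectin galectin-3, was at 591, 687, 831 and 161 CPM in HFD 1, 2, 3 and unmatched, and 68.4, 70.1, 90.4 and 109 CPM in metformin 1, 2, 4 and unmatched (log2 fold change -2.75, SE 0.49, adjusted p = 0.0471). The 3 high HFD libraries, HFD unmatched and the metformin libraries formed 3 separate levels. Lipa, the acid lipase that frees cholesterol and fatty acids in lysosomes, was at 433 ± 193 CPM on HFD and 114 ± 25.6 CPM with metformin (SD, n = 4 each), with 126 CPM in metformin 1 and no overlap. Ctss, a cysteine protease that trims the MHC class II chaperone, was at 521 ± 259 CPM on HFD and 94.8 ± 39 CPM with metformin (SD, n = 4 each), and metformin unmatched with 151.5 CPM lay above HFD unmatched with 140.9 CPM. Capg, an actin-capping protein, was at 162 ± 79.1 CPM on HFD and 37.1 ± 12 CPM with metformin (SD, n = 4 each) and overlapped in the same pair of libraries. Their log2 fold changes were -1.93, -2.46 and -2.12.

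Among the members that did not pass the test, Mmp12, the macrophage elastase, and Atp6v0d2, a proton pump subunit of macrophages and osteoclasts, had large but variable differences. Mmp12 was at 319, 366, 352 and 44.9 CPM in the HFD libraries and 24.1, 17.4, 10.2 and 44.8 CPM in the metformin libraries, in the same order, with an adjusted p of 0.0743, and 0.042 in the model of the 8 libraries. Atp6v0d2 had a log2 fold change of -3.84 (adjusted p = 0.0713). Some genes that fat cells also express in quantity had small differences: Cd36, the fatty acid translocase, and Lpl, lipoprotein lipase, had log2 fold changes of -0.25 and -0.37. Apoe, with 0.15, was the 1 member with a higher level.

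**Figure D3:**
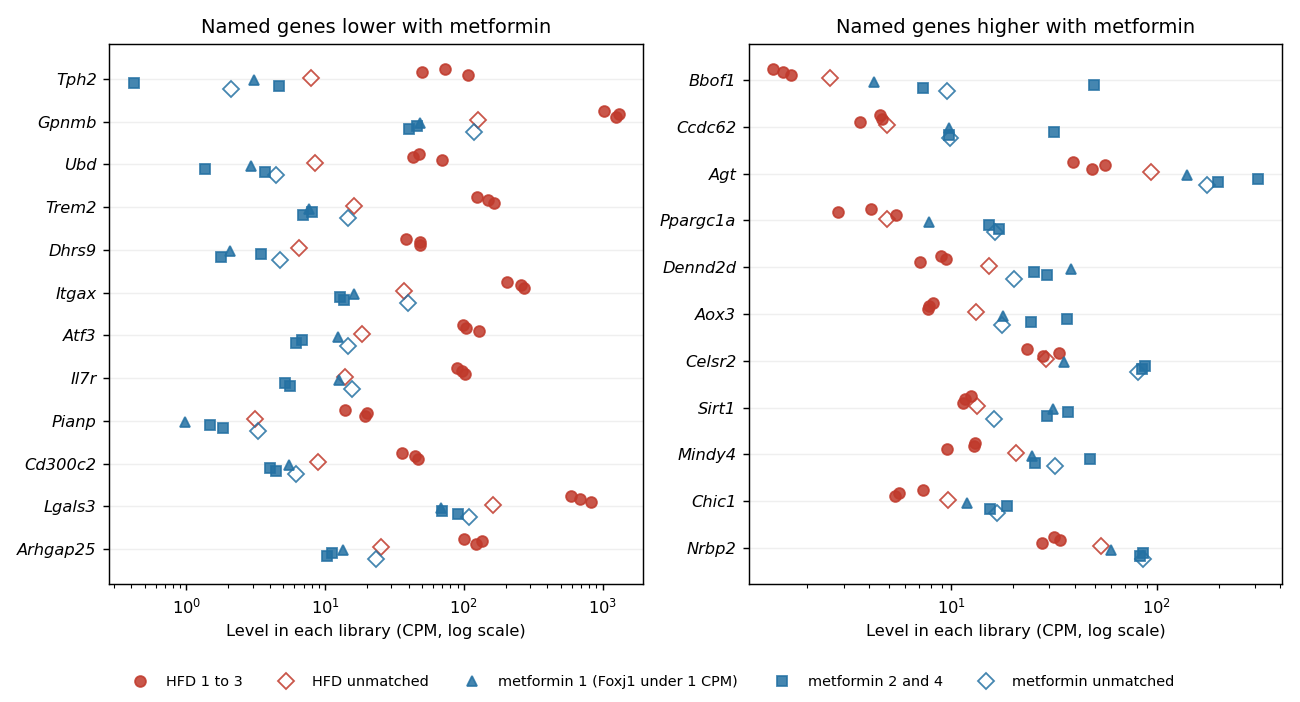
Level in each library (horizontal axis, CPM on a log scale) of 12 named genes lower with metformin (left) and 11 higher (right), with HFD libraries in red, metformin libraries in blue and the unmatched libraries as open diamonds. HFD 1 to 3 do not overlap the 4 metformin libraries for any of these genes, though Celsr2 comes close (33.4 CPM in HFD 2, 35.6 CPM in metformin 1). HFD unmatched lies nearer the metformin libraries for the lower genes, and Itgax, Il7r and Pianp overlap in the unmatched libraries.

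Some genes shared by most macrophages also fell, and none of those that mark long-lived resident cells passed the test. Of 28 general and resident markers, 4 were called lower, none higher, and 14 were lower in the model of the 8 libraries, with a median log2 fold change of -1.02. Without HFD unmatched 11 were called lower, without both unmatched libraries 8, and with the ciliated covariate 1. Mpeg1, the pore-forming perforin-2, was at 668, 721, 771 and 211 CPM in HFD 1, 2, 3 and unmatched, and 139, 114, 126 and 208 CPM in metformin 1, 2, 4 and unmatched (log2 fold change -2.02, SE 0.44, adjusted p = 0.0494). HFD unmatched stood just above metformin unmatched, and the other HFD libraries far above both. Fcgr1 and Fcgr4, which bind IgG-coated particles, were called lower at log2 fold changes of -1.50 and -2.10 without overlap. Clec7a, the receptor for fungal beta-glucan, was called at -2.27, with overlap of the unmatched libraries. Adgre1, the pan-macrophage marker F4/80, was at 338, 389, 402 and 115 CPM in the HFD libraries and 92.6, 59.9, 65.6 and 94.1 CPM in the metformin libraries, in the same order. It did not pass the test (log2 fold change -1.99, SE 0.46, adjusted p = 0.0564), and its adjusted p was 0.042 in the model of the 8 libraries.

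Cd163, the haemoglobin scavenger receptor of resident macrophages, was at 107, 107, 90 and 164 CPM in the HFD libraries and 228, 100.4, 169 and 115 CPM in the metformin libraries, in the same order. Metformin 1 was the highest of the 8 libraries, and the difference did not pass the test (log2 fold change 0.39, adjusted p = 0.671). Lyve1 and Timd4, further markers of tissue-resident cells, had log2 fold changes of 0.44 and 0.80 and were also highest in metformin 1, with 54.1 and 4.71 CPM. Within metformin 1, 17 of the 28 markers lay below all HFD libraries and 3, these same genes, above all of them. Over all genes tested the shares were 28.3% below and 28% above. Of the 28 markers, 23 had a lower level over the metformin libraries and 5 a higher one, with Cd163, Lyve1 and Timd4 among these 5. The summed general markers were 4984, 5276, 5457 and 2496 CPM in HFD 1, 2, 3 and unmatched and 2290, 1758, 1939 and 2348 CPM in metformin 1, 2, 4 and unmatched. HFD 1 to 3 were thus separate from the other 5 libraries.

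Lysosomal genes had lower levels throughout the list. All 35 tested had a negative log2 fold change, as had 7972 of all 17337 genes tested. Of the 35, 5 were called lower, 11 in the model of the 8 libraries, and the median was -0.52. Without HFD unmatched 13 were called lower, without both unmatched libraries 12, and with the ciliated covariate none. Gusb, a glucuronidase of lysosomes, was at 271, 284, 299 and 117 CPM in HFD 1, 2, 3 and unmatched, and 94.6, 57.2, 91 and 99.9 CPM in metformin 1, 2, 4 and unmatched (log2 fold change -1.50, SE 0.27, adjusted p = 0.0471). Hexa, a subunit of beta-hexosaminidase, was at 284 ± 78.4 CPM on HFD and 130.1 ± 16.2 CPM with metformin (SD, n = 4 each, log2 fold change -1.12, SE 0.20, adjusted p = 0.0471). Grn, the precursor of the lysosomal granulins, was at 398 ± 97 CPM on HFD and 210.1 ± 38.6 CPM with metformin (SD, n = 4 each, log2 fold change -0.92, SE 0.19, adjusted p = 0.0473). The proton pump subunits Atp6v0c and Atp6v1b2 were called at log2 fold changes of -0.93 and -1.19. For these 5 genes the groups did not overlap. In metformin 1, 24 of the 35 genes lay below every HFD library, against 28.3% of all genes tested, and the median of that library alone was -0.54.

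Antigen presentation and inflammatory genes differed less evenly. Of 10 MHC class II genes none passed the test with 16 libraries and 7 were lower in the model of the 8 libraries, with a median log2 fold change of -1.04. Cd74, the invariant chain, was at 1026, 1050, 1031 and 622 CPM in the HFD libraries and 472, 344, 424 and 553 CPM in the metformin libraries, in the same order. The groups did not overlap, HFD unmatched was the lowest HFD library, and the adjusted p was 0.095, or 0.042 with 8 libraries. Among 20 cytokines and mediators, Ubd and Tgfb1 were called lower. Ubd, a ubiquitin-like modifier induced by TNF and interferon gamma, was at 47.5, 42.8, 69.1 and 8.4 CPM in HFD 1, 2, 3 and unmatched, and 2.91, 1.37, 3.67 and 4.43 CPM in metformin 1, 2, 4 and unmatched (log2 fold change -3.76, SE 0.69, adjusted p = 0.0471). Metformin 1 was at 2.91 CPM, and the normal-diet mean was 0.744 CPM. Tgfb1, a fibrogenic and immunosuppressive cytokine, was at 84.8 ± 17.9 CPM on HFD and 43.1 ± 9.84 CPM with metformin (SD, n = 4 each, log2 fold change -0.97, SE 0.19, adjusted p = 0.0471). Tnf was at 1.82 ± 0.548 CPM on HFD and 0.542 ± 0.242 CPM with metformin (SD, n = 4 each) and did not pass (adjusted p = 0.074). Il1a, Il6, Il10 and Ifng were below the filter on low counts. None of 22 chemokine and chemokine receptor genes was called in the model of 16 libraries and 5 were lower with 8 libraries, among them Ccl2, which recruits monocytes, at 12.3 ± 3.82 CPM on HFD and 3.5 ± 1.56 CPM with metformin (SD, n = 4 each). Of 26 interferon-stimulated genes none was called, and the median was -0.08.

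Growth and matrix genes held a single call. Of 26 genes of DNA replication and mitosis 1 was called lower, Pcna, the sliding clamp of DNA polymerase. It was at 65.5, 61.3, 79.3 and 35.3 CPM in HFD 1, 2, 3 and unmatched, and 31.5, 32.5, 31.7 and 30.2 CPM in metformin 1, 2, 4 and unmatched (log2 fold change -0.94, SE 0.20, adjusted p = 0.0493). In metformin 1, 25 of the 26 genes lay below all HFD libraries, against 28.3% of all genes tested. The median log2 fold change there was -1.70, against -0.53 for the 4 libraries together. Metformin 2, the library rich in spermatogenic markers, was the highest metformin library for Mki67, the proliferation antigen Ki-67, with 32.4 CPM against 18.3 to 24.2 CPM, and the part of those cells in the smaller median was not tested. Of 33 collagen and matrix genes none was called, 30 had a lower level (7972 of all 17337 genes tested) and the median was -0.70. Tnc, the matrix glycoprotein tenascin C, was at 77, 72.3, 74.5 and 63 CPM in the HFD libraries and 33.6, 26.6, 32.6 and 49.8 CPM in the metformin libraries, in the same order. The groups did not overlap for Tnc, at an adjusted p of 0.228, and 0.042 with 8 libraries.

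**Figure D4:**
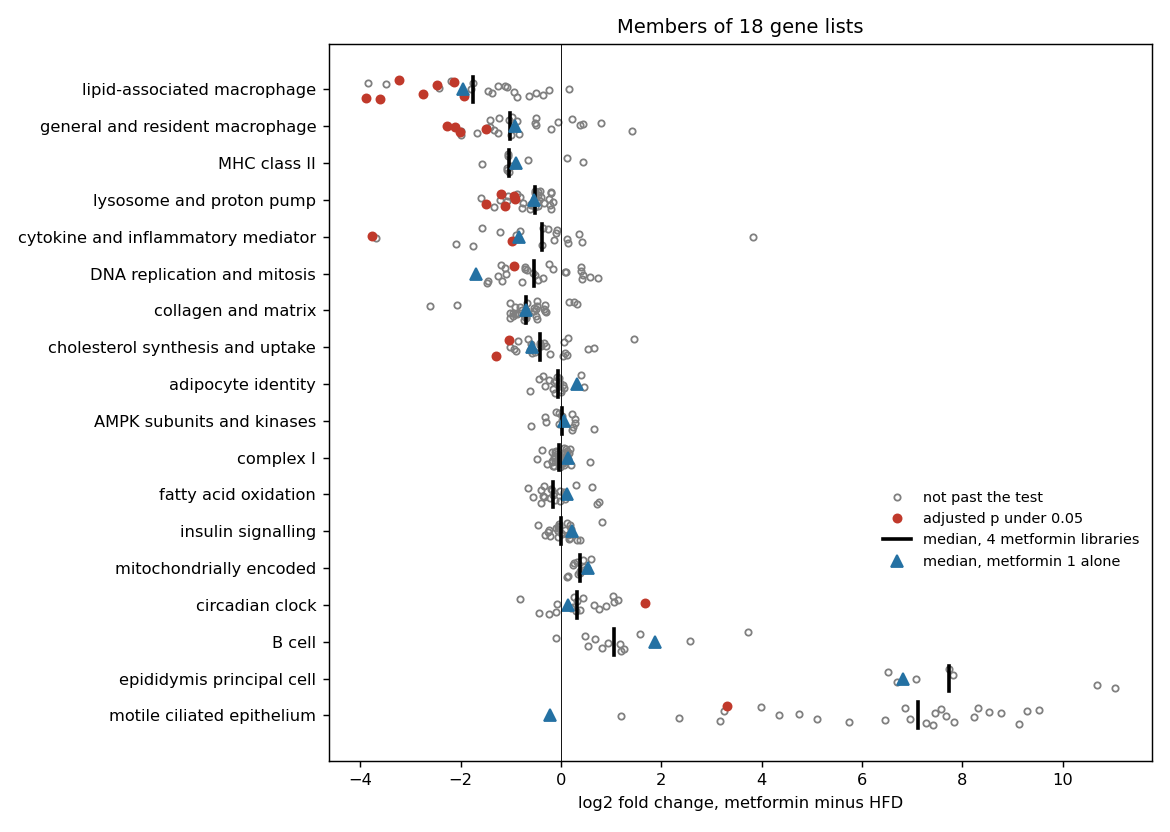
Log2 fold change (horizontal axis, metformin minus HFD) of each tested member of 18 lists, filled where the adjusted p was under 0.05, with the list's median as a bar and the median of metformin 1 alone as a triangle. Macrophage, lysosome and MHC class II medians lie below 0 in both, and the ciliated median is 7.12 for the 4 libraries and -0.22 in metformin 1. The 4-library medians of the AMPK, complex I and insulin lists lie near 0.

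Outside these lists, the largest decreases included Tph2, the neuronal form of tryptophan hydroxylase that makes serotonin precursor. It was at 72.7, 49.8, 107 and 7.91 CPM in HFD 1, 2, 3 and unmatched, and 3.05, 0.416, 4.68 and 2.08 CPM in metformin 1, 2, 4 and unmatched (log2 fold change -4.53, SE 0.77, adjusted p = 0.0471). All metformin libraries lay below HFD unmatched, which in turn lay far below HFD 1 to 3, and the normal-diet mean was 0.281 CPM. Dhrs9, a retinol dehydrogenase, was at 35.5 ± 19.9 CPM on HFD and 3 ± 1.34 CPM with metformin (SD, n = 4 each) with 2.08 CPM in metformin 1. Il7r, the receptor for interleukin 7, was at 75.6 ± 41.5 CPM on HFD and 9.72 ± 5.16 CPM with metformin (SD, n = 4 each) and overlapped in the unmatched libraries. Cd300c2, an activating receptor of myeloid cells, and Arhgap25, a Rac-directed GTPase-activating protein of blood cells, were called at log2 fold changes of -2.77 and -2.72 without overlap. Pianp, at -2.89, completed the 12 largest decreases and overlapped in the unmatched libraries.

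Among the genes that rose were regulators of energy metabolism. Sirt1, the NAD-dependent deacetylase, was at 12.5, 11.7, 11.4 and 13.4 CPM in HFD 1, 2, 3 and unmatched, and 31.4, 37, 29.2 and 16.2 CPM in metformin 1, 2, 4 and unmatched. The HFD libraries lay close together, metformin unmatched was the lowest metformin library, and the groups did not overlap. The rise was 2.32-fold (log2 fold change 1.22, SE 0.19, adjusted p = 0.0471), and metformin 1 alone gave a log2 fold change of 1.35. The normal-diet mean was 19.9 CPM, below the metformin mean of 28.5 CPM. Of the other 6 sirtuins none passed. Sirt3, the mitochondrial deacetylase, came nearest, at 10.2 ± 0.828 CPM on HFD and 15.7 ± 1.65 CPM with metformin (SD, n = 4 each) with no overlap (log2 fold change 0.62, SE 0.16, adjusted p = 0.0699), and at 0.042 with 8 libraries.

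Ppargc1a, the coactivator PGC-1alpha that drives mitochondrial gene expression, was at 4.09, 2.8, 5.42 and 4.9 CPM in HFD 1, 2, 3 and unmatched, and 7.82, 15.3, 17.1 and 16.4 CPM in metformin 1, 2, 4 and unmatched. Metformin 1 stood between the HFD libraries and the other metformin libraries, so that its own log2 fold change was 0.85 where the group's was 1.72 (SE 0.37, adjusted p = 0.0494). The promoters of Sirt1 (chr10:63338986-63339285, minus strand) and Ppargc1a (chr5:51567676-51567975, minus strand) are shown as those of the energy regulators that rose, from RefSeq on GRCm38.p6 and over the same window as above. Capitals mark the E-box CACGTG in Sirt1 and TGACGT, the core bound by CREB and ATF factors, in Ppargc1a, where it lies on the opposite strand.
Sirt1: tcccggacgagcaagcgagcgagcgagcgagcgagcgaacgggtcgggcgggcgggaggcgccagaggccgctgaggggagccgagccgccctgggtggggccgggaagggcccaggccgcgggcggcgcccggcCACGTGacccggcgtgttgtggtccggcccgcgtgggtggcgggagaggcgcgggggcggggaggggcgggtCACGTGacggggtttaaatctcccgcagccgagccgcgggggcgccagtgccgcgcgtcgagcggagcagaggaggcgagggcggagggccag
Ppargc1a: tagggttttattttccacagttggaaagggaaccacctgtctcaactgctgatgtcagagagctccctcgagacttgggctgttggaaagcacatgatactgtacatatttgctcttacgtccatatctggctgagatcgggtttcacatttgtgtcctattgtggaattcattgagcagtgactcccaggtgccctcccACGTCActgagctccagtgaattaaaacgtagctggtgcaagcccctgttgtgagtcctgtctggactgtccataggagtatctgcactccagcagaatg
The E-box occurs 2 times in Sirt1, from 115 and 43 bases before the start, and TGACGT once in Ppargc1a, from 50 bases before it. Of the 32 higher genes 25 had a promoter in the table, of which 7 (28%) held TGACGT and 2 (8%) CACGTG. Among tested genes with a promoter the shares were 11.9% and 11%, and among all 27025 genes with one 8.37% and 8.09%. Counted by promoter, the shares were 21.2% and 6.06% for the higher genes, and 7.51% and 7.15% among all 32851 promoters. Of the 12 PGC-1 and biogenesis genes, Ppargc1a was the 1 called. Pprc1, a related coactivator, was at 24.4 ± 0.586 CPM on HFD and 35.7 ± 4.34 CPM with metformin (SD, n = 4 each) without overlap (adjusted p = 0.138, 0.042 with 8 libraries), and Tfam, which packages mitochondrial DNA, had a log2 fold change of 0.04.

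Agt, angiotensinogen, the precursor of the angiotensins that fat cells also secrete, was at 39, 56.1, 48.5 and 94.4 CPM in HFD 1, 2, 3 and unmatched, and 140, 312, 198 and 175 CPM in metformin 1, 2, 4 and unmatched. Every metformin library was above every HFD library, HFD unmatched was the highest of the latter, and metformin 2 the highest of all (log2 fold change 1.79, SE 0.33, adjusted p = 0.0471). The normal-diet mean was 263 CPM. Anpep, an aminopeptidase that cleaves angiotensin peptides and marks myeloid cells, was the other called gene among 10 of the renin-angiotensin list and fell, at 189.5 ± 80.8 CPM on HFD and 43.8 ± 14.4 CPM with metformin (SD, n = 4 each, log2 fold change -2.12, SE 0.42, adjusted p = 0.0471). Aox3, an aldehyde oxidase, was at 9.23 ± 2.68 CPM on HFD and 24.2 ± 8.95 CPM with metformin (SD, n = 4 each), with 17.9 CPM in metformin 1. Celsr2, an adhesion receptor of planar cell polarity, was at 23.4, 33.4, 28.1 and 28.9 CPM in the HFD libraries and 35.6, 88.2, 84.8 and 81.2 CPM in the metformin libraries, in the same order. Metformin 1 stood just above the highest HFD library for Celsr2, and the metformin libraries with ciliated markers far above it. The part of duct tissue in that gene was not tested.

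Genes of the circadian clock (19 tested) had a median log2 fold change of 0.33. Nr1d1, the repressor REV-ERBalpha, was at 72.6, 56.8, 53 and 74.6 CPM in the HFD libraries and 126, 105, 117 and 132 CPM in the metformin libraries, in the same order, with no overlap (adjusted p = 0.132, 0.042 with 8 libraries). Dbp, a clock output factor, was at 17, 14.6, 18.9 and 17.8 CPM in the HFD libraries and 16.5, 36, 45.5 and 43.2 CPM in the metformin libraries, in the same order. For Dbp, metformin 1 lay within the HFD range and the 3 libraries rich in ciliated markers lay above it, and the list's median in metformin 1 alone was 0.13. The labels do not give the hour of tissue collection.

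The other named increases were Bbof1, Ccdc62, Dennd2d, Mindy4, Chic1 and Nrbp2. Bbof1, which organises the basal bodies of cilia, was at 1.36, 1.53, 1.67 and 2.57 CPM in the HFD libraries and 4.22, 49.8, 7.33 and 9.51 CPM in the metformin libraries, in the same order, and Ccdc62, a gene of the testis, at 4.5, 4.59, 3.59 and 4.9 CPM in the HFD libraries and 9.76, 31.8, 9.72 and 9.9 CPM in the metformin libraries, in the same order. Metformin 2 was far above the rest for both, and metformin 1 still lay above all HFD libraries. The part of duct and germ cells in these levels was not tested. Dennd2d, at 10.2 ± 3.54 CPM on HFD and 28.3 ± 7.74 CPM with metformin (SD, n = 4 each), was highest in metformin 1 with 38.5 CPM. Mindy4, Chic1 and Nrbp2 rose by 2.31-, 2.26- and 2.14-fold without overlap, and their metformin 1 values were 24.7, 11.9 and 60 CPM.

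The pathways through which metformin is best known held almost no calls. None of 14 AMPK subunits and kinases was called in either model, and their median log2 fold change was 0.02. Prkaa2, the alpha2 catalytic subunit, had the highest, at 17 ± 1.05 CPM on HFD and 26.9 ± 7.93 CPM with metformin (SD, n = 4 each, log2 fold change 0.66, SE 0.28, adjusted p = 0.165). None of 36 complex I genes was called in the model of 16 libraries and 1 with 8 libraries, with a median of -0.03 and a range of -0.48 to 0.57. The 13 mitochondrially encoded mRNAs all had a higher level (9365 of all 17337 genes tested), with log2 fold changes of 0.12 to 0.61 and none called. Their summed share of mRNA counts was 0.980 ± 0.143% on HFD and 1.29 ± 0.189% with metformin (SD, n = 4 each, exact two-sided permutation p = 0.0857 over 70 assignments, of which the smallest possible is 0.0286). None of 23 insulin signalling genes, 22 fatty acid oxidation genes or 20 adipocyte identity genes was called in either model, with medians of -0.01, -0.15 and -0.06. In metformin 1 alone the medians were 0.22, 0.12 and 0.33, and that of complex I was 0.15. For these 3 lists, 10, 10 and 10 genes lay above all HFD libraries in metformin 1, and 7, 5 and 3 below. Over all genes tested, 28% lay above and 28.3% below. Fatty acid synthesis (20 genes) and triglyceride turnover (25 genes) had no call in the model of 16 libraries and 1 in each direction with 8 libraries. Of 7 tested carriers of metformin none was called. Their median log2 fold change was -0.04, with a range of -0.56 to 3.74. Slc47a2, a further carrier, was below the filter on low counts. Its means were 0.026 CPM on HFD and 5.8 CPM with metformin, with 23.2 CPM in its highest library.

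Sterol and adipokine genes held a few calls. Of 25 genes of cholesterol synthesis and uptake, 2 were called lower: Insig1, the sterol-regulated retention factor of SREBP, at 518 ± 200.2 CPM on HFD and 212 ± 58.8 CPM with metformin (SD, n = 4 each, log2 fold change -1.29, SE 0.28, adjusted p = 0.0494), and Dhcr7, the last enzyme of cholesterol synthesis, at 23.1 ± 7.5 CPM on HFD and 11.3 ± 0.9 CPM with metformin (SD, n = 4 each, log2 fold change -1.04, SE 0.23, adjusted p = 0.0494). Both were without overlap and both lay below all HFD libraries in metformin 1. The adjusted p of Insig1 was 0.0512 with 8 libraries. Of 15 adipokines Metrnl, a secreted protein of fat and macrophages, was called lower, at 54.7 ± 18.1 CPM on HFD and 18 ± 5.1 CPM with metformin (SD, n = 4 each, log2 fold change -1.60, SE 0.33, adjusted p = 0.0473). Lep, leptin, which fat cells secrete in proportion to their lipid store, was at 3414, 2858, 4394 and 2072 CPM in HFD 1, 2, 3 and unmatched, and 1017, 653, 1302 and 1344 CPM in metformin 1, 2, 4 and unmatched. The groups did not overlap and HFD unmatched was the lowest HFD library, but the model of 16 libraries gave an adjusted p of 0.154 and that of the 8 libraries 0.042 (log2 fold change -1.56, SE 0.63). Adipoq, adiponectin, was at 2377 ± 491 CPM on HFD and 2365 ± 877 CPM with metformin (SD, n = 4 each), a difference within the spread of either group. Relative to each library's mRNA count, it was at 3331, 1466, 2360 and 2391 CPM in metformin 1, 2, 4 and unmatched. The HFD libraries held 2046 to 2980 CPM by that measure, so metformin 1 lay above all of them.

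Duct markers themselves held 1 call. All 26 ciliated genes had a higher level, with a fitted median log2 fold change of 7.12, and 1 of them, Bbof1, passed the test. Many of these genes lay under the floor of 3 counts on HFD, so that the fitted median is no exact size. In metformin 1 the median was -0.22, with 5 genes above and 5 below all HFD libraries. The 7 tested genes of epididymis principal cells lay above all HFD libraries in each metformin library, metformin 1 included, and none was called in the model of 16 libraries and 6 with 8 libraries. Adam7, an epididymal membrane protein, had 0 counts in every HFD library and 5.95 CPM in metformin 1, and its metformin mean was at least 65.5-fold above the floor of 3 counts. Seminal vesicle markers summed to at most 5.42 CPM in the 8 libraries.

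Of 23201 lncRNAs tested, 15 (0.0647%) were higher and 3 (0.0129%) lower with metformin, by the same edgeR model with the library sizes of the mRNA table. In the model of the 8 libraries, 6 of these 15 and 1 of these 3 were called too. Metformin 1 lay above every HFD library for the 15 higher ones and below every one for the 3 lower ones, where over all lncRNAs tested the same held for 42.8% upward and 12.9% downward. The median log2 fold change of all lncRNAs was 0.31 on this scale and 0.02 when the lncRNA table's own totals were used, under which 1 was called higher and 2 lower. Strand was not stated, so reads of a lncRNA and of a gene that overlaps it cannot be told apart. NONMMUT040716.2 (chromosome 2, 156091958 to 156095089) was at 0.253, 0.255, 0.26 and 0.368 CPM in HFD 1, 2, 3 and unmatched, and 23.1, 25.9, 19.1 and 21.4 CPM in metformin 1, 2, 4 and unmatched (log2 fold change 6.27, SE 0.81, adjusted p = 0.029). It was near 0 in all HFD libraries, and present in all metformin libraries and all normal-diet libraries, where the mean was 25.3 CPM.

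This lncRNA lies inside Rbm12, an RNA-binding protein gene, begins at the same coordinate, and also overlaps Cpne1, a copine gene. Rbm12 went the opposite way. It was at 17.9, 17.3, 16.5 and 18.6 CPM in HFD 1, 2, 3 and unmatched, and 3.25, 2.14, 1.78 and 2.41 CPM in metformin 1, 2, 4 and unmatched (log2 fold change -2.88, SE 0.65, adjusted p = 0.0558, and 0.00311 with 8 libraries). The sum of both features was 17.9 ± 0.945 CPM on HFD and 24.8 ± 3.12 CPM with metformin. Resveratrol 4 had the HFD pattern, with 0.479 CPM of the lncRNA and 24.8 CPM of Rbm12. Resveratrol 1 to 3 had that of the metformin libraries. Rbm12 was named after its values had been seen.

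**Figure D5:**
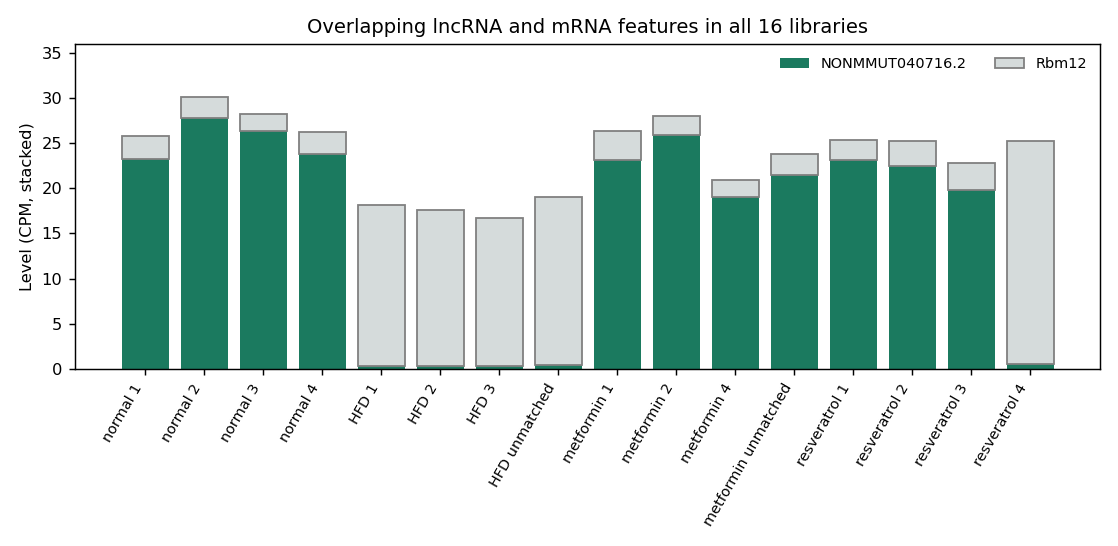
Level of the lncRNA NONMMUT040716.2 (green) and of the overlapping gene Rbm12 (grey), stacked in CPM (vertical axis), in each of the 16 libraries. The 4 HFD libraries and resveratrol 4 hold almost only Rbm12 counts, and the other 11 libraries mostly counts of the lncRNA.

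NONMMUT026984.2 (chromosome 16, 56189226 to 56190004), at the end of the gene Senp7, was at 0.101, 0.051, 0.0521 and 0.0613 CPM in HFD 1, 2, 3 and unmatched, and 2.84, 0.119, 3.56 and 3.5 CPM in metformin 1, 2, 4 and unmatched (adjusted p = 0.029). It was not among the lncRNAs tested in the model of the 8 libraries. All 4 HFD libraries and metformin 2 lay under the floor of 3 counts, so that metformin 2 cannot be told apart from HFD and no fold is given, while metformin 1, 4 and unmatched stood at 2.84 CPM or more, and the normal-diet mean was 0.0603 CPM. NONMMUT027296.2, inside the nuclear receptor corepressor gene Nrip1, was at 2.32 ± 0.228 CPM on HFD and 5.2 ± 0.852 CPM with metformin (SD, n = 4 each, log2 fold change 1.16, SE 0.16, adjusted p = 0.029). NONMMUT096520.1, NONMMUT106571.1 and the Ensembl lncRNAs Gm37694 and Gm48225 were higher at log2 fold changes of 1.67, 1.40, 1.23 and 0.82. These 4 did not pass in the model of the 8 libraries, with adjusted p-values of 0.05476, 0.0541, 0.05375 and 0.0541. NONMMUT098205.1 fell, at 6.16, 9.07, 8.17 and 1.72 CPM in HFD 1, 2, 3 and unmatched, and 0.277, 0.237, 0.407 and 0.82 CPM in metformin 1, 2, 4 and unmatched (log2 fold change -3.81, SE 0.62, adjusted p = 0.0499). HFD unmatched was the lowest HFD library for it, without overlap, and its adjusted p was 0.05375 in the model of the 8 libraries. NONMMUT065904.2, inside the proton pump gene Atp6v1b2, fell along with that gene, at 8.26 ± 2.15 CPM on HFD and 3.49 ± 0.551 CPM with metformin (SD, n = 4 each, log2 fold change -1.25, SE 0.21, adjusted p = 0.0499). Its adjusted p was 0.0541 in the model of the 8 libraries.

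Small structural RNAs counted in the lncRNA table (7SL, 7SK, and the RNA components of RNase MRP and RNase P) took 6.20 to 8.23% of all counts on HFD and 4.30 to 5.99% with metformin. The means were 7.03 ± 0.950% and 5.25 ± 0.806% (SD, n = 4 each, exact two-sided permutation p = 0.0286, the smallest that 70 assignments can give). Every metformin library, with metformin 1 the highest at 5.99%, was below every HFD library.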

How the data were processed

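RNA of epididymal fat was measured by total RNA sequencing in 16 libraries, of which the 4 HFD and the 4 HFD + metformin libraries were compared. Per the file headers, the authors deposited raw read counts per transcript and FPKM values beside them, for coding genes and for lncRNAs. Counts were used throughout, and the deposited FPKM values of the 14 matched columns served to check which column belongs to which header name, since the mRNA header has 43 names for 44 cells. Tools named in the submitters' processing notes are fastp and HISAT2, with GRCm38 as the build. The counter, the strand setting and the annotation release are not given there. Transcript counts were summed to 27150 genes. Coordinates are those of the deposited tables (GRCm38).

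The gene tests used edgeR 4.0.16 under R 4.3.3 (filterByExpr, TMM, robust quasi-likelihood F test, two-sided, Benjamini-Hochberg adjustment over all genes tested, threshold 0.05), with all 16 libraries in the fit. LncRNAs were tested in the same way with the library sizes of the mRNA table. CPM values are scaled by TMM, and marker sums are relative to each library's mRNA count without it. Shares were compared by an exact permutation test. The edgeR test of genes was also run on simulated counts, and the other steps were not. Alternatives were other size factors, DESeq2 1.42.0, no filter, fewer libraries and a ciliated covariate. Columns were mapped by the code in the sample titles. Replicate numbers are names only.

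Genes named are the 12 largest changes in each direction among calls with a mean of at least 5 CPM in either group, members of pathway and cell type lists, and of lncRNAs the 6 largest in each direction with at least 2 CPM, plus called lncRNAs with an Ensembl name. Some genes that the rule names are not reported here. Groups, lists and rules were chosen with earlier results of these data known. Promoters were searched with Python 3.11.15 in the RefSeq table of GRCm38.p6. With 15061324 to 20531032 counts per library, 3 counts were taken as the floor, 0.184 CPM, which covers counting error alone.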

Additional observations from a re-analysis of the deposited data

Results flagged for a closer look

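In each group of 4 libraries, the highest or lowest value was examined for a gap to the nearest other library that exceeded the critical share of the group's range in Dixon's test. Of 202 groups of values examined, 29 (14.4%) had such a library, where chance alone gives about 5%. HFD unmatched was the library in 14 of them and metformin 2 in 6.

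HFD unmatched stood below the other HFD libraries for Il7r with 13.9 CPM (the others 88.9 to 102.3 CPM), Mmp12 with 44.9 CPM (318.7 to 366.3 CPM), Gusb with 117 CPM, Cd74 with 622 CPM, Anpep with 69.9 CPM and Col6a2, a collagen VI chain, with 615.8 CPM. It stood above them for Aox3 with 13.2 CPM, Adipoq with 3110 CPM, Slc47a1, a metformin and cation exporter, with 0.858 CPM, and the lncRNAs NONMMUT040716.2 with 0.368 CPM and NONMMUT106571.1 with 3.74 CPM. For NONMMUT040716.2 the others held 0.253 to 0.26 CPM. All these values lie near the floor of 0.184 CPM, so that counting error may make up this gap. Its summed general macrophage markers were 2496 CPM (4984 to 5457 CPM in the others), its adipocyte markers 43310 CPM (33730 to 34910 CPM) and its spermatogenic markers 12.4 CPM (1.53 to 2.18 CPM).

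Metformin 2 was far above the other metformin libraries for Bbof1 with 49.8 CPM, Ccdc62 with 31.8 CPM and the spermatogenic sum with 2766 CPM (5.05 to 29.2 CPM). It was below them for Tgfb1 with 28.4 CPM, for Tfam with 17.5 CPM and for the summed lipid-associated macrophage genes with 12680 CPM (19970 to 20620 CPM).

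Metformin unmatched was the highest metformin library for Gpnmb with 117.8 CPM, Trem2 with 14.5 CPM, Itgax with 39.3 CPM and Atp6v0d2 with 20.1 CPM. Metformin 1 was the lowest for Celsr2 with 35.6 CPM and Nrbp2, a pseudokinase, with 60.02 CPM. Metformin 4 was the highest for Atp6v0c with 65.4 CPM and for NONMMUT027296.2 with 6.47 CPM. In HFD 3, Prkab2, a regulatory subunit of AMPK, was at 21.8 CPM, below the 38.3 to 40.8 CPM of the other HFD libraries.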

How the results depend on the processing

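No paired analysis was possible because the replicate numbers follow the order of deposit and pair no libraries. Counts of genes are given as higher and lower with metformin, against 32 and 147. They were 24 and 97 with relative log expression size factors, 1258 and 956 with DESeq2, 546 and 596 with the 8 libraries alone, 1068 and 1374 without the resveratrol library that stands apart (resveratrol 4), and 92 and 366 without both unmatched libraries. With a ciliated score as covariate, also without resveratrol 4, they were 12 and 2, and with metformin 1 alone against HFD, where the lone library is assumed to vary like the other groups, 1 and 2. Without a low-count filter edgeR called 0 and 0, with 3736 and 1923 at an unadjusted p under 0.05. Leaving out each library in turn gave 0 to 182 higher and 0 to 531 lower, the largest without HFD unmatched, while 1457 to 2949 and 1142 to 1776 had an unadjusted p under 0.05. The 32 higher and 147 lower genes kept their sign in each setting that tested them.

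For lncRNAs (15 higher and 3 lower) the counts were 13 and 2 with relative log expression factors, 888 and 162 with DESeq2, 0 and 0 with no filter (8526 and 1226 unadjusted), 34 and 5 with 8 libraries, 1055 and 180 without resveratrol 4, 57 and 2 with the ciliated covariate, 54 and 31 without both unmatched libraries, 18 and 29 for metformin 1 alone, and 1 and 2 with the lncRNA table's own library sizes. Leaving out 1 library gave 0 to 130 and 0 to 55. The structural RNA share differed by -2.05 to -1.38 percentage points over the libraries left out, and lost its call without HFD 2, HFD 3, metformin 2 or metformin unmatched. Every metformin library stayed below every HFD library whichever was left out. With 1 library fewer the exact test has few assignments, and fully separate groups need not pass it. The lost calls therefore do not show dependence on those libraries. Why the counts move was not tested, and genes under the floor of 3 counts cannot be compared at this depth.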

Other observations

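Of 12 tested genes of B cells 11 had a higher level with metformin (9365 of all 17337 genes tested). None passed the test with 16 libraries by edgeR and 1 did with 8. The median log2 fold change was 1.05, and 1.88 in metformin 1, which lay above all HFD libraries for 11 of the 12 (28% of all genes tested). Mzb1, a chaperone of antibody-secreting cells, was at 0.253, 0.102, 0.0521 and 0.123 CPM in the HFD libraries and 2.15, 1.13, 2.14 and 1.97 CPM in the metformin libraries, in the same order (adjusted p = 0.0879, 0.0371 with 8 libraries). For Mzb1 3 of the 4 HFD libraries lay under the floor of 3 counts, so no fold is given. Pax5, the factor that fixes B cell identity, had a log2 fold change of 2.56 (adjusted p = 0.0667). The summed B cell markers were not separated between the groups: metformin 2 held 107.5 CPM and the HFD libraries 192.2 to 277.5 CPM.

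Of 16 tested genes of T and NK cells none was called with 16 libraries and 1, Trac, the constant chain of the T cell receptor, was lower with 8. Trac was at 3.73 ± 1.4 CPM on HFD and 0.962 ± 0.448 CPM with metformin (SD, n = 4 each) (log2 fold change -1.95, adjusted p = 0.0697). Endothelial genes (14 tested) had no call, with a median of -0.01, and those of fibroblasts and preadipocytes (17 tested) none with 16 libraries and 1 lower with 8, with a median of -0.17. Branched-chain amino acid breakdown, a pathway of mature fat cells, had no call among 22 genes and a median of 0.11. In metformin 1, 18 of them lay above all HFD libraries, against 28% of all genes tested.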
